A study of Rorippa islandica and Rorippa pyrenaica with 24 samples.

Results

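The comparison described here set young leaves of *Rorippa islandica* after 24 h under water against young leaves of plants kept in air for the same time. It was formed by 6 of the 24 RNA-seq libraries of the series, namely 3 control and 3 submergence libraries of this species and harvest, chosen by species, treatment and time. The plants were unmodified, grown on soil from propagated seed, and submerged in tap water in transparent boxes under a day-night rhythm, while the controls stood in empty boxes. The other libraries came from *R. islandica* at 48 h and from *R. stylosa*, a less tolerant relative, at 24 and 48 h, each again with 3 control and 3 submergence libraries. Plants of *R. stylosa* were propagated vegetatively, which the paper states was done independently for each replicate. The study calls the libraries of a group biological replicates. The labels do not say whether leaves of several plants were pooled or whether replicates were grown at separate times, so the p-values measure the spread between these libraries only.

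Water slows the diffusion of gases, so a submerged leaf receives less oxygen and carbon dioxide, while ethylene that it produces stays in the tissue. Ethylene is an early signal of flooding in plants, and low oxygen and low energy supply set off further transcript changes, among them a shift from growth and biosynthesis to the use of reserves. *R. islandica* belongs to a genus in which some species live in wet habitats, and it survives long submergence in the light.

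The tables name genes by identifier and orthogroup, a family of related genes across species, and give the coding length of each transcript, but pair no identifier with a gene name or function. Genes are therefore described by identifier, orthogroup and coding length, no role is given for any of them, and the leaf identity of the samples was not checked against marker genes here. The total count per library ran from 36432258 to 66692318 in controls and from 36482358 to 44444905 after submergence, the largest being control replicate 2. Of 30646 genes, 26232 had a count in at least 1 of the 6 libraries and 20609 passed the filter on low counts and were tested. Levels are given as CPM, counts per 1000000 counts of a library, scaled by the trimmed mean of M values (TMM). Each CPM is a share of a library's RNA, and in whole leaves fewer cells of a type and less RNA per cell cannot be told apart.

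Submergence for 24 h changed more than 1 in every 5 genes tested by more than 2-fold. With edgeR's quasi-likelihood test against a log2 fold change of 1 and a Benjamini-Hochberg adjusted p under 0.05, 2409 genes (11.7% of those tested) were upregulated and 2174 (10.5%) were downregulated, together 22.2%. The typical called gene moved by almost 5-fold in either direction, with a median log2 fold change of 2.25 for upregulated genes (4.75-fold) and -2.26 for downregulated genes (4.80-fold). The median log2 fold change of all tested genes was -0.0031, with quartiles of -0.66 and 0.63. TMM takes most genes as unchanged, so a median near 0 follows in large part from the scaling. Without TMM, scaling by library totals alone, the median of all tested genes was 0.12, so that every log2 fold change would shift upward by about that amount.

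The tails of both directions were long. Among upregulated genes 1405 exceeded a log2 fold change of 2, 390 exceeded 4 and 130 exceeded 6, and 10% lay at 4.96 or higher. Among downregulated genes 1292 fell below -2, 322 below -4 and 109 below -6, and 10% lay at -4.56 or lower. A part of these tails came from genes without any count in a group, for which the fitted value depends on a small added prior count. This applied to 25 upregulated genes at 0 counts in all 3 controls and to 43 downregulated genes at 0 counts in all 3 submerged libraries. With these genes set to the bound that 3 counts over a group would give, 112 upregulated genes still exceeded 6 and 74 downregulated genes still lay below -6, while both medians kept their values.

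Smaller changes were more frequent than calls. Tested against no change, 14405 genes (69.9%) differed, 7235 higher (35.1%) and 7170 lower (34.8%) after submergence, and 9822 of them were not called against the threshold of 1. For 10139 genes (49.2%) the 95% interval of the log2 fold change lay wholly within 1 of zero, and for 3933 it lay within 0.5. In the raw levels, all 3 submerged libraries were above all 3 controls in 37.2% of tested genes and below them in 37.4%. Of the upregulated genes 2407 and of the downregulated genes all 2174 were separated in this way. The 2 upregulated genes whose groups overlapped, Roisl.0006s0244 and Roisl.0035s0019, are named after their values were seen.

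**Figure D1:**
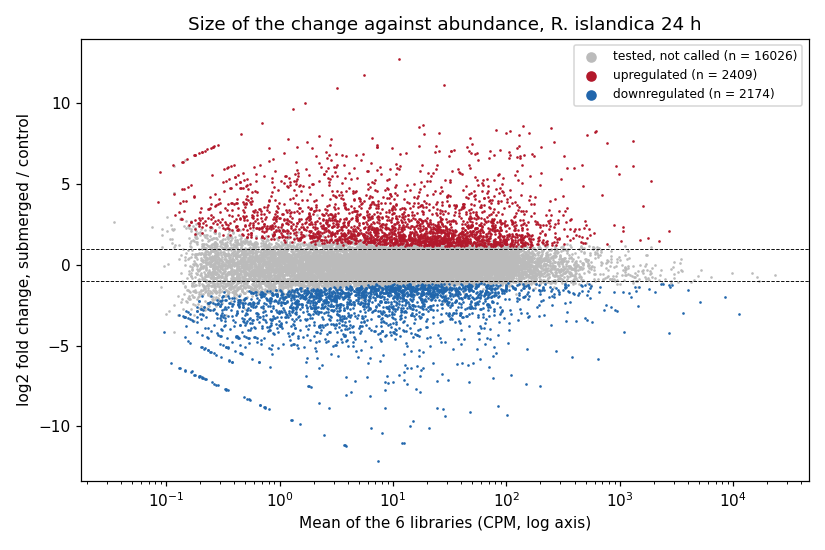
Log2 fold change after 24 h of submergence (vertical axis) against the mean of the 6 libraries in CPM (horizontal log axis) for the 20609 tested genes of *R. islandica*, coloured by call. The dashed lines mark log2 fold changes of -1 and 1. The 2409 upregulated and 2174 downregulated genes lie at all abundances, and the diagonal streaks at low CPM are genes with 0 counts in a group.

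Up- and downregulation were not spread alike over abundance. Genes were put into 5 classes by their mean over all 6 libraries, a measure that favours neither direction. Below 1 CPM, 10.9% of 2709 tested genes were upregulated and 14.2% downregulated. Between 1 and 10 CPM, the shares were 11.2% and 12.9% of 6833 genes. The order then turned, with 11.6% up and 8.17% down among 9387 genes between 10 and 100 CPM, and 15.9% up and 7.80% down among 1564 genes between 100 and 1000 CPM, where 248 genes rose and 122 fell. Among the 116 genes at 1000 CPM or more, 11 rose (9.48%, exact binomial 95% interval 4.83 to 16.3%) and 21 fell (18.1%, 11.6 to 26.3%). These classes are a description without a test, and the intervals cover counting error only. Below 1 CPM a gene passes the filter more readily if it is high in 1 group, so these shares hold for tested genes only.

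Precision changed more with abundance than the size of the change did. The median SE of the log2 fold change was 0.43 below 1 CPM, 0.19 between 1 and 10 CPM and between 0.10 and 0.11 in the 3 higher classes. The median size of the log2 fold change over all tested genes of a class was 1.04, 0.68, 0.56, 0.63 and 0.78 from the lowest class to the highest. The parts of the filter and of the larger SE in the 1.04 of the lowest class were not tested. So the smallest typical change was in the class of 10 to 100 CPM, and the most abundant genes moved by more than that class. The 3 submerged libraries differed somewhat more among themselves than the 3 controls in every class, with a median SD of log2 CPM of 0.121 against 0.0890 between 10 and 100 CPM. Submerged replicate 1 stood furthest from the others of its group, as given below, and its part in these SDs was not tested.

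When genes were classed by the 3 controls alone, the picture became steeper. Then 24.4% of the 3007 tested genes below 1 CPM in air were upregulated and 1.64% of those at 1000 CPM or more. The downregulated shares of these classes were 7.91% and 23.8%. Part of that slope follows from classing by the group that is also the base of the fold change. The filter on low counts adds to it, since a gene nearly silent in air was tested only if other libraries held enough counts.

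**Figure D2:**
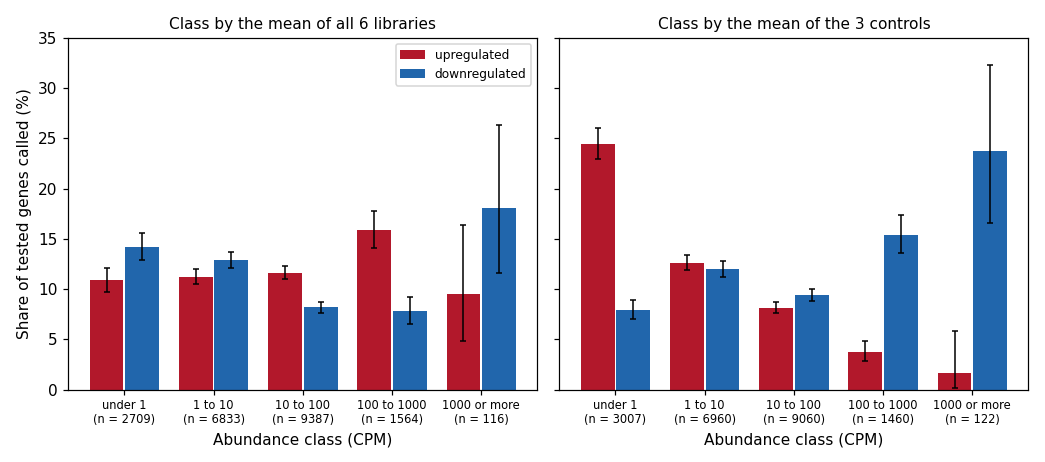
Share of tested genes called up or down (vertical axis, %) in 5 abundance classes (horizontal axis, CPM, with the number of genes tested), with classes set by the mean of all 6 libraries on the left and by the mean of the 3 controls on the right. Bars start at 0 and whiskers are exact binomial 95% intervals. By the mean of all 6 libraries, the upregulated share was highest at 100 to 1000 CPM (15.9%) and the downregulated share at 1000 CPM or more (18.1%).

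The leaf transcriptome became more even under water. The 10 genes with the highest mean count over the 6 libraries held 15.2, 14.3 and 14.5% of all counts in control replicates 1 to 3 and 8.33, 7.76 and 7.98% in submerged replicates 1 to 3. Counts were spread over more genes after submergence, and the 2 groups did not overlap. Genes needed to reach 50% of the counts numbered 360, 384 and 358 in controls and 732, 714 and 729 after submergence. To reach 90% of the counts, 6116 to 6272 genes were needed in controls and 6590 to 6746 after submergence. An exact two-sided permutation test gave p = 0.1 for each of these measures, the smallest value that 3 against 3 libraries allow.

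The 2174 downregulated genes together held 18.6, 18.7 and 19.3% of the counts in controls and 5.37, 4.84 and 4.88% after submergence. The 2409 upregulated genes went from 3.50, 3.85 and 3.56% to 17.8, 20.4 and 20.4%. These shares are descriptions without a test, since the same libraries chose the genes. The loss was far more concentrated than the gain. Summed over genes, the downregulated set lost 153266 CPM, of which the 3 genes with the largest losses carried 22.6% and 22 genes carried 50%. The upregulated set gained 152557 CPM, of which the top 3 carried 6.37%, and 124 genes were needed for 50%.

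**Figure D3:**
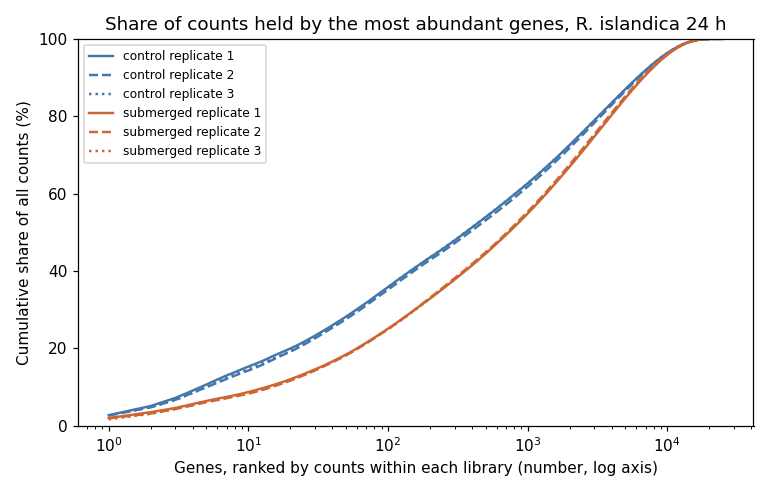
Cumulative share of all counts (vertical axis, %) held by the most abundant genes of each library (horizontal log axis, number of genes ranked within the library) for the 3 control and 3 submerged libraries at 24 h. The 3 submerged curves run below the 3 control curves over the more abundant genes and meet them at high ranks. The first 10 ranks of each library hold 14.3 to 15.3% in controls and 8.32 to 8.73% after submergence.

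The largest losses of transcript fell in very few gene families. Orthogroup OG0000028 holds 4 genes of 801 to 804 coding bases and made up 5.24, 5.39 and 5.24% of all counts in controls and 1.52, 1.70 and 1.58% after submergence. Its 4 members fell by unequal amounts. Roisl.0213s0255 stood at 20445, 20478 and 19908 CPM in controls and at 2404, 2539 and 2368 CPM after submergence, a log2 fold change of -3.06 (SE 0.11, edgeR adjusted p 5.09e-09) and the largest loss of any gene. Roisl.0213s0254 stood at 8405, 8777 and 8352 CPM in controls and at 2033, 1635 and 1613 CPM under water (log2 fold change -2.27, SE 0.12, adjusted p 3.03e-07).

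The remaining members of this orthogroup marked its extremes. Roisl.0028s0848 went from 4923, 5551 and 5093 CPM to 210.1, 334.7 and 282.2 CPM, at -4.23 (SE 0.18, edgeR adjusted p 7.75e-09) the largest log2 decrease among genes at 1000 CPM or more. Roisl.0028s0847 measured 22269, 22506 and 23436 CPM in controls and 9876, 12358 and 11278 CPM after submergence. Its groups did not overlap, yet its log2 fold change of -1.03 (SE 0.11) was not called against the threshold of 1 (adjusted p 0.587). Roisl.0028s0847 was thus the most abundant member of its orthogroup in all 6 libraries. The members are of nearly equal length, and reads that fit several of them are divided by an estimate, so the split between them is uncertain.

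The second abundant family was OG0000070, a pair of genes of 546 coding bases. Per coding length, with counts divided by coding length and scaled to a sum of 1000000 in each library, Roisl.0024s0094 had the highest level of all genes over the 6 libraries. Its mean level per length was 43733 in controls and 32025 after submergence, and the next highest, Roisl.0028s0847, had 23360 and 13242. On the CPM scale Roisl.0024s0094 measured 29365, 28282 and 29069 in controls and 19331, 19154 and 16464 after submergence, a log2 fold change of -0.66 (SE 0.11) that was not called (edgeR adjusted p 1.0). Its partner Roisl.0046s0003 went from 13700, 12417 and 14279 CPM to 3890, 3404 and 2829 CPM and was called, at -1.997 (SE 0.16, adjusted p 3.37e-05). Within this pair, as in OG0000028, the gene with the highest level in air kept the largest share of it.

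Outside these families, the abundant downregulated gene with the next steepest decrease was Roisl.0115s0722 (OG0009749, 1530 coding bases). It stood at 1927, 2285 and 2005 CPM in controls and at 117.6, 113.7 and 118.5 CPM after submergence. The log2 fold change was -4.15 (SE 0.16, edgeR adjusted p 3.68e-09), close to that of Roisl.0028s0848, and the submerged libraries lay within a narrow range.

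Gains were carried by genes of several orthogroups. The largest gain in CPM was that of Roisl.0019s0459 (OG0000565, 1086 coding bases), the only *R. islandica* gene of its orthogroup. It rose from 110.9, 113.1 and 78.2 CPM to 3396, 3896 and 3730 CPM (log2 fold change 5.19, SE 0.16, edgeR adjusted p 6.27e-10). Roisl.0209s0564 (OG0000448, 963 coding bases) was already abundant in air, at 842.3, 1145 and 1052 CPM, and reached 3254, 5154 and 4804 CPM (2.12, SE 0.23, adjusted p 2.10e-04). Its fold change was below the median of the upregulated set, and its gain rested on a high level in air. The other *R. islandica* gene of OG0000448, Roisl.0021s0290, was at 1.32, 0.45 and 0.27 CPM in controls and at 0.42, 0.25 and 0.27 CPM under water and was not called (adjusted p 0.713).

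Roisl.0213s0694 and Roisl.0213s0695 carry consecutive numbers, form orthogroup OG0000141, and have 363 and 405 coding bases. Roisl.0213s0694 went from 232.7, 243.0 and 253.8 CPM to 2724, 3177 and 3090 CPM (log2 fold change 3.62, SE 0.14, edgeR adjusted p 6.25e-09). Roisl.0213s0695 went from 27.0, 28.0 and 24.8 CPM to 2121, 1716 and 1617 CPM (6.09, SE 0.21, adjusted p 1.15e-09). Both members rose, and together they took 0.51, 0.49 and 0.48% of all counts in the submerged libraries.

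The steepest increases among genes at 1000 CPM or more were those of Roisl.0209s0438 (OG0013213, 1761 coding bases) and Roisl.0074s0610 (OG0008389, 2541 coding bases). Roisl.0209s0438 stood at 20.3, 8.37 and 9.39 CPM in air and at 3292, 1775 and 2758 CPM under water (log2 fold change 7.69, SE 0.49, edgeR adjusted p 1.43e-07). Roisl.0074s0610 stood at 40.0, 39.3 and 34.8 CPM in air and at 2241, 2638 and 2931 CPM under water (6.10, SE 0.19, adjusted p 4.45e-10). Both were at 40.0 CPM or less in air, and the replicates of the first were spread much more widely than those of the second.

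Between 100 and 1000 CPM the increases were steeper still. Roisl.0006s0360 (OG0024270, 762 coding bases) measured 1.32, 1.80 and 1.01 CPM in controls and 397.4, 527.8 and 569.9 CPM after submergence, a log2 fold change of 8.45 (SE 0.31, edgeR adjusted p 1.36e-09). Roisl.0018s0124 (OG0016626, 1749 coding bases) measured 0.104, 1.05 and 0.862 CPM in controls and 185.7, 371.0 and 287.0 CPM after submergence (8.62, SE 0.50, adjusted p 6.25e-08). For the latter, control replicate 1 was far below the other controls and submerged replicate 1 was the lowest of its group.

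The steepest decreases in that class started from firm levels in air. Roisl.0021s0238 (OG0002563, 1887 coding bases) was at 200.2, 203.2 and 210.0 CPM in controls and at 0.32, 0.22 and 0.43 CPM after submergence, or 27524 counts against 38. Its log2 fold change was -9.31 (SE 0.17, edgeR adjusted p 9.45e-12), and the alternative tool DESeq2 gave -9.34 with a larger SE of 0.24. Roisl.0019s0120 (OG0004303, 1515 coding bases) fell from 276.3, 357.7 and 552.6 CPM to 2.36, 2.01 and 2.10 CPM (-7.52, SE 0.41, adjusted p 3.88e-08). Here the spread was in the controls, where replicate 1 was lowest and replicate 3 highest, and not in the submerged libraries.

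Several genes were detected only after submergence at this depth. Roisl.0007s0495 (OG0006438, 1554 coding bases) had 0 counts in all controls and 6.88, 32.2 and 28.4 CPM under water, at least 1034-fold higher when 3 counts over the control group are taken as the floor (edgeR adjusted p 2.12e-04). Roisl.0214s0243 (OG0019526, 204 coding bases) had 0 counts in controls and 15.8, 10.1 and 7.35 CPM under water, at least 498-fold higher (adjusted p 3.72e-06). Roisl.0214s0541 (OG0000177, 1083 coding bases) had 0 counts in controls and 4.60, 7.40 and 7.43 CPM under water, at least 293-fold higher (adjusted p 2.50e-06). Submerged replicate 1 was the lowest for Roisl.0007s0495 and Roisl.0214s0541 and the highest for Roisl.0214s0243.

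Roisl.0209s0248 (OG0000528, 459 coding bases) was nearly silent in air, with 3 counts in the 3 controls together. It reached 42.7, 66.1 and 60.9 CPM, or 6843 counts, under water, a ratio of 2566 with a 95% counting interval of 878 to 12446 (edgeR adjusted p 3.42e-10). Below 1 CPM, Roisl.0030s0077 (OG0025346) had 0 control counts and 1.34, 1.74 and 1.16 CPM after submergence (at least 64.5-fold higher), and Roisl.0210s1754 (OG0021897, with 4 isoforms) had 0 control counts and 0.63, 1.16 and 0.94 CPM (at least 41.6-fold higher). Both of these low genes were called, with edgeR adjusted p of 5.08e-06 and 7.46e-05.

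The mirror image were genes that were lost below detection. Roisl.0016s0011 (OG0024495, 1698 coding bases) was at 3.84, 11.2 and 29.2 CPM in controls and at 0 counts in all submerged libraries, at least 544-fold lower (edgeR adjusted p 2.28e-03). Roisl.0213s0518 (OG0002256, 1230 coding bases) was at 3.84, 7.65 and 11.5 CPM in controls and at 0 counts under water, at least 300-fold lower (adjusted p 3.65e-05). In both genes the 3 controls differed several-fold among themselves, with replicate 1 lowest and replicate 3 highest.

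The same order of controls was seen in Roisl.0115s0285 and Roisl.0210s1966, the steepest decreases between 10 and 100 CPM. Roisl.0115s0285 (OG0004895) measured 6.10, 17.1 and 51.4 CPM in controls and a single count in the 3 submerged libraries together, a ratio of 2702 with a 95% counting interval of 485 to 106774 (edgeR adjusted p 8.53e-05). Roisl.0210s1966 (OG0001686) measured 8.10, 21.4 and 42.8 CPM in controls and likewise a single submerged count, a ratio of 2750 with an interval of 493 to 108670 (adjusted p 1.44e-05). Below 1 CPM, Roisl.0210s1967, which carries the number after Roisl.0210s1966 but belongs to OG0025401, was at 0.57, 1.37 and 2.88 CPM in controls and at 0 counts after submergence (at least 60.7-fold lower, adjusted p 3.79e-03). Roisl.0213s0286 (OG0024810, 300 coding bases) did not share this order, with 1.77, 1.82 and 0.92 CPM in controls and 0 counts under water (at least 63.1-fold lower, adjusted p 3.68e-04).

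**Figure D4:**
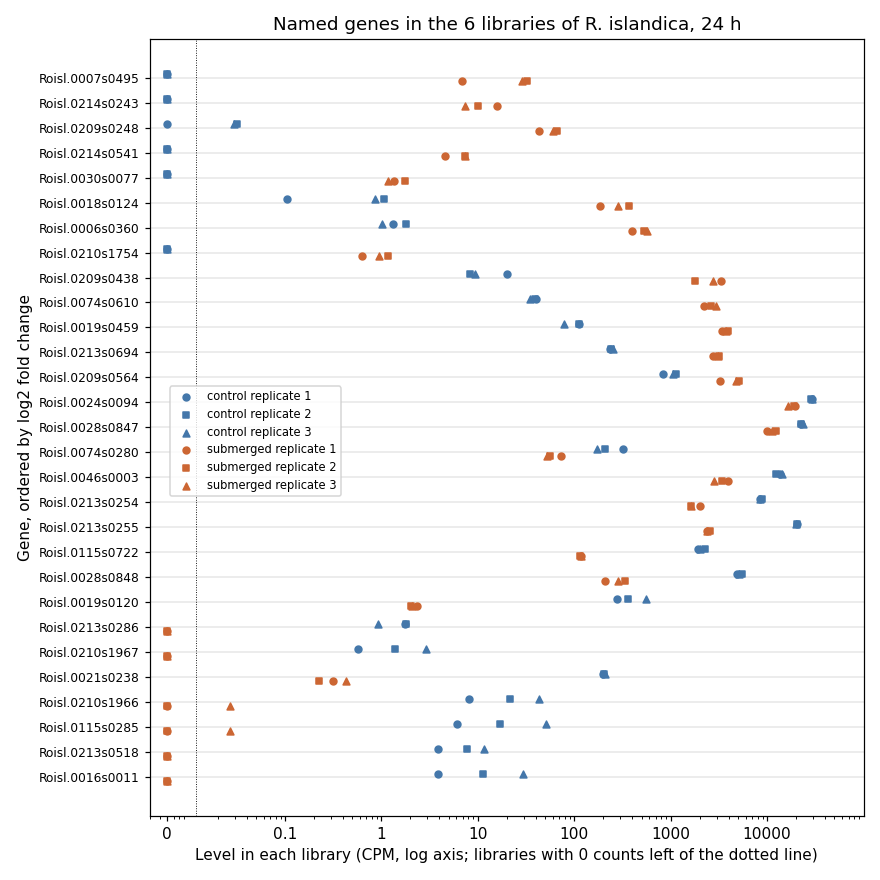
Level of the 29 named genes (vertical axis, ordered by log2 fold change) in each of the 6 libraries (horizontal log axis, CPM). Blue marks are controls, orange marks are submerged libraries, and marker shape gives the replicate, with libraries at 0 counts drawn left of the dotted line. For every gene shown the 3 orange and 3 blue marks do not overlap, and the separation is narrowest for Roisl.0024s0094.

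Wide differences between replicates leaned towards the same libraries. Among the 2115 upregulated genes with a mean of 1 CPM or more, the 3 controls spanned more than 1 log2 unit in 350 (16.5%), and control replicate 1 was the lowest in 261 of these and control replicate 2 the highest in 246. The submerged libraries spanned more than that in 187 of them, with submerged replicate 1 lowest in 149. For the 1789 downregulated genes the wide spread lay on the other side, with 84 (4.70%) spanning more than 1 log2 unit in controls and 340 (19.0%) after submergence. Submerged replicate 1 was highest in 222 of those 340. In both directions the wider group was the one at the lower level. Median log2 CPM of the upregulated genes was 2.30 to 2.67 in controls and 4.76 to 4.99 after submergence. For the downregulated genes it was 3.99 to 4.08 and 1.46 to 1.83. The part of the level in these spreads was not tested. Among 13996 genes that were tested but not called, 1.99% spanned more than 1 log2 unit in controls and 2.95% after submergence. Among genes with a wide spread, then, submerged replicate 1 most often stood on the side of the controls in both directions. When the 6 libraries were dropped singly, 2044 upregulated genes (84.8%) and 1790 downregulated genes (82.3%) were called in all 6 fits.

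By replicate number, the change was above 1 log2 unit in all 3 pairs for 2335 upregulated genes and below -1 in all 3 for 2107 downregulated genes. The range of the log2 change over the 3 pairs had a median of 0.59 over called genes and was 0.98 or more for the widest 25%. No library was a copy of another. Chi-square per degree of freedom between replicates was 19.3 to 22.6 among controls and 13.9 between submerged replicates 2 and 3, and 45.9 and 54.2 for the pairs with submerged replicate 1.

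Members of an orthogroup mostly moved in the same direction when they moved. Of 1368 orthogroups with at least 2 tested genes, 503 had a called gene, 100 had at least 2 called genes that all rose, 65 had at least 2 that all fell, and 23 had calls in both directions. In 67 orthogroups every tested gene was upregulated and in 54 every tested gene was downregulated. Of all tested genes 11.7% were upregulated and 10.5% downregulated, together 22.2%, and the counts of orthogroups to be expected from these shares were not computed. These counts are descriptions, and similar sequences within an orthogroup can share reads.

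OG0000022 was the orthogroup with the most downregulated genes. All 6 of its genes fell, their coding lengths were 273 or 276 bases, and their numbers lie between Roisl.0210s1503 and Roisl.0210s1513. Summed, the 6 genes stood at 49.8, 64.9 and 68.7 CPM in controls and at 2.31, 3.26 and 2.88 CPM after submergence. The highest of them, Roisl.0210s1512, went from 19.9, 22.9 and 26.3 CPM to 1.18, 1.52 and 1.48 CPM (log2 fold change -4.04, SE 0.21, edgeR adjusted p 5.25e-08). Roisl.0210s1510 lost all counts, from 146 in the 3 controls to 0, at least 43.3-fold lower. The other 4 members had log2 fold changes from -6.37 to -4.14.

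In OG0000012, 5 of 7 genes of 417 to 444 coding bases were downregulated. The decreases were close to each other, from -4.62 for Roisl.0213s0207 to -3.81 for Roisl.0213s0196. Roisl.0213s0195 and Roisl.0213s0205, which carry numbers adjacent to downregulated members, were not called. Roisl.0213s0205 measured 1.22, 2.36 and 1.99 CPM in controls and 0.60, 4.18 and 4.58 CPM after submergence, so that its submerged libraries lay on both sides of the controls. Roisl.0213s0204 and Roisl.0213s0206 had the same rounded counts in all 6 libraries and cannot be counted as separate observations, which leaves 4 distinguishable downregulated members.

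On the upregulated side, OG0000019, OG0000029 and OG0000393 each had 5 upregulated and no downregulated genes. OG0000019 has 11 genes numbered between Roisl.0024s0060 and Roisl.0024s0085, of which 8 were tested. The largest increase was in Roisl.0024s0060, from 0.91, 1.64 and 1.72 CPM to 12.6, 22.0 and 25.3 CPM (log2 fold change 3.80, SE 0.32, edgeR adjusted p 3.84e-06). The most abundant member, Roisl.0024s0079, did not take part, with 84.4, 82.8 and 82.4 CPM in controls and 104.9, 93.5 and 89.5 CPM under water (0.21, SE 0.077, adjusted p 1.0). The called members were thus all low in air, and the orthogroup's summed level rose from 89.2, 91.1 and 89.6 CPM to 151.9, 148.1 and 152.9 CPM.

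All 10 genes of OG0000029 were tested, numbered between Roisl.0209s0692 and Roisl.0209s0718. Roisl.0209s0704 had the highest level after submergence, rising from 1.35, 3.25 and 2.41 CPM to 17.0, 22.4 and 29.1 CPM (log2 fold change 3.25, SE 0.27, edgeR adjusted p 5.56e-06). Roisl.0209s0712, the highest in air, moved the other way without being called, from 6.34, 7.38 and 7.34 CPM to 4.91, 4.38 and 3.77 CPM (-0.69, SE 0.12, adjusted p 1.0). OG0000393 has 15 genes, 10 of them tested, and its summed level of 16.1, 30.6 and 27.1 CPM in controls became 75.04, 94.70 and 126.41 CPM. Its highest member in each library was Roisl.0028s0651, with 4.75, 12.84 and 11.03 CPM in air and 38.02, 52.10 and 73.3 CPM under water (2.50, SE 0.31, adjusted p 3.19e-04). In this gene both replicates numbered 1 were the lowest of their groups.

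Among tested genes, the upregulated share was higher in orthogroups of 3 or more genes. The upregulated share was 11.3% of 16675 tested genes without a second *R. islandica* member, 11.4% in pairs, 16.2% in orthogroups of 3 to 4 genes, 21.3% in those of 5 to 9 and 18.8% in those of 10 or more. The downregulated share was 10.5% in the first of these classes, 13.2% at 5 to 9 genes and 4.38% (7 of 160) at 10 or more. Genes of larger orthogroups were also lower, with a median mean level of 12.9 CPM without a second member and 3.35 CPM at 5 to 9 genes. Fewer of them passed the filter, 333 of 1167 at 5 to 9 genes and 160 of 1776 at 10 or more, against 16675 of 21085 without a second member. A low gene passes more readily if it is high in 1 group, so these shares hold for tested genes only. Over all genes, 30 of 1776 at 10 or more were upregulated, against 1876 of 21085 without a second member. Genes outside the orthogroups that the table marks as universal were upregulated in 14.9% and downregulated in 7.06% of 1798 cases, against 11.4% and 10.9% of 18811 inside them. Their median level was 1.22 CPM against 13.9 CPM, and 1798 of 9152 were tested against 18811 of 21494. By coding length the upregulated share declined from 13.2% at 300 bases or less to 9.58% above 2400 bases. Whether abundance, shared reads or the filter account for these differences between classes was not tested.

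Called genes often carried neighbouring identifier numbers. The files give no coordinates, so neighbours are genes with consecutive numbers under the same prefix, and their distance is unknown. Of 2202 upregulated genes with a tested neighbour, 675 (30.7%) had an upregulated neighbour, against 17.6% of all tested genes. Of 2017 downregulated genes, 511 (25.3%) had a downregulated neighbour, against 16.2% of all. Counting only neighbours of another orthogroup, the shares were 27.7% against 16.9% for upregulation and 22.6% against 15.7% for downregulation. No test was made of these shares.

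There were 48 runs of at least 3 consecutive upregulated genes and 45 of downregulated genes, with 302 genes in all. The number of runs to be expected with 11.7% of all tested genes upregulated and 10.5% downregulated was not computed. The 3 longest were upregulated and are named after their values were seen. Roisl.0024s0072 to Roisl.0024s0078 made a run of 7 genes from 5 orthogroups, which includes 2 members of OG0000019. Roisl.0021s0209 to Roisl.0021s0214 made a run of 6 genes, each from another orthogroup, with log2 fold changes from 1.30 to 3.40. The first of them, Roisl.0021s0209, went from 89.6, 93.1 and 95.8 CPM to 539.6, 697.0 and 656.1 CPM (2.76, SE 0.14, edgeR adjusted p 1.64e-07). Roisl.0007s0790 to Roisl.0007s0794 made a run of 5 genes of OG0001397 and OG0001929, among which Roisl.0007s0791 rose most, from 3.38, 2.79 and 2.32 CPM to 84.5, 130.7 and 106.6 CPM (5.24, SE 0.27, adjusted p 3.42e-08).

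The response at 24 h was then set against that at 48 h of the same species, to find genes for which the length of submergence mattered. The 2 harvests use separate control libraries. The difference of the responses was called for 3 of 20609 genes with the 24 h value higher (0.0146%) and for 0 with it lower (0.0%). At an unadjusted p under 0.05 against the threshold there were 273 and 125, and DESeq2 called 5 and 1. Against no difference, 618 genes (3.0%) were higher and 441 (2.14%) lower at 24 h, together 5.14%. For 13494 genes (65.5%) the 95% interval of the difference lay within 1 log2 unit of zero. Among the 4583 genes called at 24 h this held for 1923, a smaller part than of all tested genes.

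All 3 called genes had fallen further at 48 h. Roisl.0074s0280 (OG0000041, 489 coding bases) stood at 318.2, 210.9 and 172.3 CPM in the 24 h controls and at 73.0, 56.2 and 52.5 CPM after 24 h under water (log2 fold change -1.95, SE 0.32, edgeR adjusted p 7.14e-03). At 48 h its controls were at 517.0, 272.3 and 267.6 CPM and its submerged libraries at 3.87, 2.03 and 5.01 CPM. The difference of the responses was 4.64 (SE 0.48, adjusted p 9.55e-03). With DESeq2 the 24 h decrease alone was not called (adjusted p 0.0961).

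Roisl.0189s0178 (OG0010608, 966 coding bases) behaved similarly, with 19.0, 16.1 and 18.2 CPM in the 24 h controls and 4.18, 4.05 and 4.36 CPM after 24 h under water. After 48 h its submerged libraries were at 0.67, 0.22 and 0.55 CPM, and the responses differed by 3.28 (SE 0.27, edgeR adjusted p 3.67e-03). Roisl.0115s0271 (OG0013036, 2352 coding bases) was the only one of the 3 not called at 24 h, at 7.51, 7.89 and 8.53 CPM in air and 6.60, 7.42 and 6.57 CPM under water (log2 fold change -0.21, SE 0.12, adjusted p 1.0). At 48 h it fell to 1.30, 1.08 and 1.38 CPM, with a difference of 2.56 (SE 0.18, adjusted p 3.67e-03).

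In *R. stylosa*, whose reads were assigned to the *R. islandica* transcriptome, the 24 h response of the same genes was smaller in the median. The *R. stylosa* plants were propagated vegetatively and those of *R. islandica* from seed, so species and propagation cannot be told apart here. The upregulated genes of *R. islandica* had a median log2 fold change of 1.22 in *R. stylosa* and the downregulated ones -1.01. These medians are a description only, since the *R. islandica* libraries chose the genes. Over all 22226 genes tested in the model of both species, the response was called higher in *R. islandica* for 2.64% and lower for 4.04%, together 6.67%, and 32.9% differed when tested against no difference. Among the upregulated genes 421 of 2407 were higher and 22 lower than in *R. stylosa*, and among the downregulated genes 542 of 2174 were lower and 8 higher. These shares are likewise descriptions, because the same 24 h libraries of *R. islandica* enter both contrasts.

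The named genes fell on both sides. Roisl.0006s0360 rose in both species, in *R. stylosa* from a mean of 1.71 to 224.5 CPM, and Roisl.0018s0124 from 0.0776 to 75.7 CPM, and neither difference between the species was called (edgeR adjusted p 0.518 and 1.0). Roisl.0074s0610 also rose in *R. stylosa*, from 139.0 to 1202 CPM, but by less, with a difference of 2.97 on the log2 scale (SE 0.36, adjusted p 1.16e-04). For Roisl.0209s0438, the mean went from 27.3 to 105.0 CPM in *R. stylosa*, and the difference between species was 5.73 (SE 0.70, adjusted p 2.37e-05). Roisl.0209s0248 had a control mean of 1.58 CPM in *R. stylosa*, above its level in *R. islandica*, and 7.85 CPM under water, with a difference of 8.78 (SE 0.73, adjusted p 1.88e-07).

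Among decreases, Roisl.0021s0238 stood apart from *R. stylosa* most, where it went from 0.84 to 2.25 CPM (difference -10.73, SE 0.47, edgeR adjusted p 2.12e-11). It was already low in air in *R. stylosa*, with 80 counts in the 3 controls against 27524 in those of *R. islandica*. In OG0000028 the 3 downregulated members differed between species by -2.97 for Roisl.0028s0848, -2.22 for Roisl.0213s0255 and -1.86 for Roisl.0213s0254, all called, whereas Roisl.0028s0847 differed by -0.24 (adjusted p 1.0). Roisl.0019s0459 and Roisl.0213s0694, both among the largest gains in *R. islandica*, had 0 and 2 counts in the 3 *R. stylosa* controls and 1 and 2 counts after submergence. For genes with so few *R. stylosa* counts, and for Roisl.0021s0238, low expression and reads that were not assigned across species cannot be told apart.

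**Figure D5:**
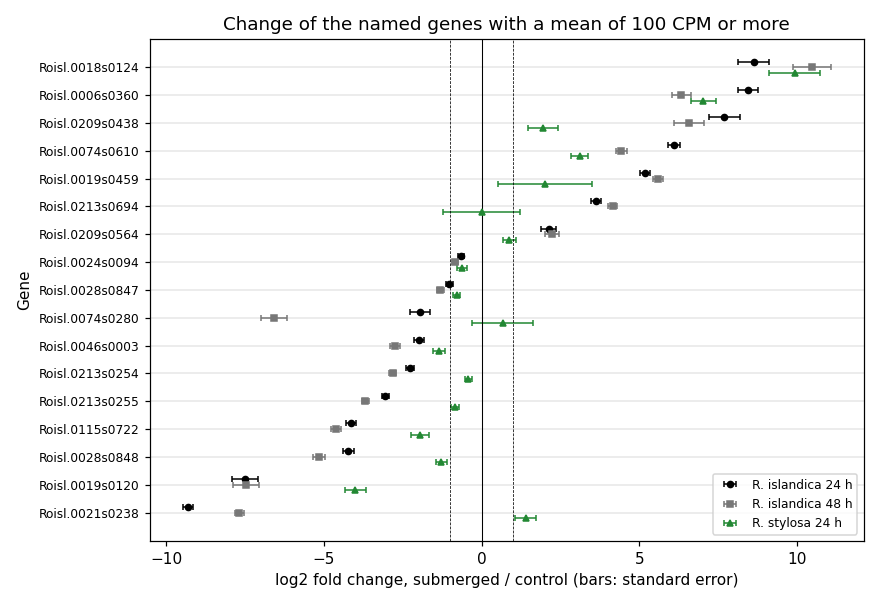
Log2 fold change of submergence against control (horizontal axis) for the 17 named genes with a mean of 100 CPM or more (vertical axis), in *R. islandica* at 24 h (black circles), *R. islandica* at 48 h (grey squares) and *R. stylosa* at 24 h (green triangles). Whiskers are standard errors, and dashed lines mark -1 and 1. Roisl.0074s0280 shows the widest gap between 24 and 48 h (-1.95 and -6.59) and Roisl.0021s0238 the widest between species, and the *R. stylosa* values of Roisl.0019s0459 and Roisl.0213s0694 rest on 1 to 4 counts.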

How the data were processed

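Polyadenylated RNA of young leaves was sequenced as paired ends. Reads were checked by the authors with FastQC 0.12.0, and kallisto assigned them, also those of *R. stylosa*, to transcripts of *R. islandica*. The deposited values are expected counts (estimated counts) per transcript and library, not normalized and not pooled, beside the orthogroup and coding length of each transcript. The length given for a gene is that of its first isoform. The tables hold 32703 transcripts, and 12.0% of the values of the 6 libraries were not whole. Assignment divides reads that fit several similar transcripts, which affects members of an orthogroup. Columns carry a digit, 1 or 2, read here as the harvest at 24 or 48 h, and a Roman numeral read as the replicate.

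Isoforms were summed per gene (1699 genes had more than 1) and rounded. edgeR 4.0.16 in R 4.3.3 was used with filterByExpr, TMM, estimateDisp, glmQLFit and glmTreat against a log2 fold change of 1, fitted on the 12 *R. islandica* libraries in 4 groups, and on all 24 libraries for the comparison of species. Calls had a Benjamini-Hochberg adjusted p under 0.05 over all tested genes. Standard errors were derived from the quasi-likelihood F statistic, and they differed from those of DESeq2 in either direction. CPM were scaled by TMM, and log2 CPM of single libraries used a prior count of 2. The level per coding length is the count divided by coding length, scaled to a sum of 1000000 per library. Shares of single classes carry exact Clopper-Pearson intervals at 95%. DESeq2, the tool of the authors, was run here in version 1.42.0 as an alternative, with other scalings, filters, sample sets and libraries left out. Figures were drawn with matplotlib 3.10.9. The scripts were tested on simulated data.

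Genes were named by rule. In each abundance class these were the 2 upregulated and 2 downregulated genes of largest log2 fold change with groups that do not overlap. Added were the 3 largest gains and the 3 largest losses of CPM among called genes, the 2 orthogroups with most calls per direction (with 1 more that tied), the 2 highest levels per length and the largest called difference between harvests. The comparison, the lists and the rule were chosen with earlier results of these data known. Replicate numbers were shared between groups. Deviations from group means of same-numbered control and submerged libraries at 24 h correlated at 0.382, 0.112 and 0.169, so the numbers were taken as pairs for the fit with a block. Control replicate 2 correlated more with submerged replicate 3 (0.231).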

Additional observations from a re-analysis of the deposited data

Results flagged for a closer look

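In *R. islandica* the log2 fold change after submergence was higher at 24 h than at 48 h by 4.64 (SE 0.48) in Roisl.0074s0280, by 2.56 (SE 0.18) in Roisl.0115s0271 and by 3.28 (SE 0.27) in Roisl.0189s0178, each by edgeR's test of the difference between the harvests. All 3 submerged libraries at 48 h lay below all 3 at 24 h in each of them.

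Of the named genes, 9 differed between the species at 24 h by edgeR's test of the difference. The log2 fold change of *R. islandica* was higher than that of *R. stylosa* by 8.78 (SE 0.73) in Roisl.0209s0248, by 5.73 (SE 0.70) in Roisl.0209s0438 and by 2.97 (SE 0.36) in Roisl.0074s0610. It was lower in the other 6, with differences of -10.73 (SE 0.47) in Roisl.0021s0238, -3.52 (SE 0.46) in Roisl.0019s0120, -2.97 (SE 0.23) in Roisl.0028s0848, -2.22 (SE 0.20) in Roisl.0213s0255, -2.20 (SE 0.40) in Roisl.0115s0722 and -1.86 (SE 0.17) in Roisl.0213s0254. The parts of reads that were not assigned across species and of the unlike propagation in these differences were not tested.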

How the results depend on the processing

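Of 98 alternative counts of calls, 89 stayed within 1.5 times the reported count. Upregulated genes numbered from 1987 (DESeq2) to 3365 (tested against no change, then a log2 fold change over 1), and downregulated genes from 1779 to 3371 in the same settings. In DESeq2, 1976 of the 2409 upregulated and 1753 of the 2174 downregulated genes were called again. Without single libraries the counts ranged from 2224 to 2559 up and from 1937 to 2442 down, highest without submerged replicate 1 in both directions. With the replicate block there were 2483 up and 2255 down, and the block changed no call of a named gene. With only the 6 libraries of 24 h and the replicate block there were 2419 up and 2276 down. Responses higher and lower at 24 h than at 48 h numbered 3 and 0, and 5 and 1 with DESeq2. Tested against no difference and then kept at a log2 difference over 1, they numbered 287 and 115. With the replicate block they numbered 3 and 1. Without single libraries they numbered 2 to 4 and 0 to 1, the 1 lower response appearing without control replicate 3. Responses higher and lower than in *R. stylosa* numbered 586 and 897, and 410 and 611 with DESeq2. Tested against no difference and then kept at a log2 difference over 1, they numbered 1541 and 2163. With the replicate block they numbered 594 and 905, and without single libraries 484 to 612 and 754 to 936. Of 319 alternative log2 fold changes of the 29 named genes, 318 kept their direction and call. The exception was Roisl.0074s0280 with DESeq2, at -1.96.

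With classes set by the 3 controls, upregulated shares of tested genes were 24.4, 12.6, 8.16, 3.70 and 1.64% from the lowest class to the highest. Downregulated shares were 7.91, 11.97, 9.37, 15.4 and 23.8%. With counts divided by coding length, the 10 genes with the highest mean held 16.4% in controls and 10.1% after submergence, the first 1000 held 68.0 and 59.7%, and 50% of the total was reached by 204 and 476 genes on average. Upregulated genes then held 3.08% in controls and downregulated genes 20.1 and 5.61%. Depth limits the genes below 1 CPM, where the median SE was 0.43.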
